A study of Homo sapiens with 60 samples.

Results

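The LXR target and cholesterol efflux genes described here are the nuclear receptor genes NR1H2 and NR1H3 and the genes ABCA1, ABCG1, MYLIP and LPCAT3. They are 6 of the 60675 genes in the deposited count table of A549, a long-established line from a human lung carcinoma, and were found by matching the table's Ensembl identifiers to these symbols. All 6 passed the filter on low counts that left 17129 genes for testing. The study sequenced mRNA of A549 cells after 24 h with water extracts of 6 medicinal plants, each at a high, a medium and a low dose. Zingiberis Rhizoma Recens (ZRR), Zingiberis Rhizoma (ZR), Pinelliae Tuber (PT) and Zizyphi Fructus (ZF) were used at 500, 100 and 20 µg/mL. The doses of Scutellariae Radix (SR) were 230, 46 and 9.2 µg/mL. Those of Coptidis Rhizoma (CR) were 130, 26 and 5.2 µg/mL, since the design text sets the IC20 and dilutions of it as the doses where the IC20 lies under 500 µg/mL. The remaining groups were a DMSO vehicle, at 0.1% by the sample labels and 2% by the series' design text, and wortmannin, a PI3-kinase inhibitor, at 10 µM as positive control. Each of the 20 groups had 3 libraries, and no label states whether the 3 were separate cultures. The p-values therefore cover the spread among these libraries, which may be technical.

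LXRα, encoded by NR1H3, and LXRβ, encoded by NR1H2, are nuclear receptors that bind oxysterols and other sterol intermediates and act with a retinoid X receptor partner. When cellular sterol is high they raise transcription of ABCA1 and ABCG1, the membrane transporters that pass cholesterol to lipid-poor apolipoprotein and to lipoprotein particles, and of MYLIP (also called IDOL), a ubiquitin ligase that sends lipoprotein receptors for degradation. LPCAT3, another known LXR target, is an acyltransferase that places polyunsaturated fatty acids into membrane phospholipids. SREBP2 works in the opposite sense, switching on cholesterol synthesis and uptake when sterol is low.

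At the high doses, both efflux transporters rose with SR and with CR, and neither was called with the other 4 extracts. ABCG1 was 3.86-fold higher in SR high than in vehicle and 2.83-fold higher in CR high, and ABCA1 was 1.52-fold and 1.34-fold higher. NR1H2 was 1.17-fold and 1.19-fold higher in the same groups. LPCAT3 went up with SR, to 1.21-fold, and down with CR, to 0.65-fold. MYLIP and NR1H3 passed the threshold in none of the 31 comparisons planned for these genes. Vehicle libraries are shared by all comparisons with vehicle, so those comparisons are not independent of each other.

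On GRCh38 with GENCODE 29, ABCA1 spans chr9:104781002-104928237 on the minus strand and ABCG1 chr21:42199689-42297244 on the plus strand. MYLIP lies at chr6:16129125-16148248 (plus), LPCAT3 at chr12:6976186-7018510 (minus), NR1H2 at chr19:50329653-50382982 (plus) and NR1H3 at chr11:47248300-47269032 (plus). LXR with its partner binds direct repeats of a 6-base site separated by 4 bases, and the ABCA1 promoter is the textbook example, so its 150 bases before the RefSeq start are shown (GRCh38.p14, minus strand, chr9:104928156-104928305), with the closest match to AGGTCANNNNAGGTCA in capitals.
ABCA1: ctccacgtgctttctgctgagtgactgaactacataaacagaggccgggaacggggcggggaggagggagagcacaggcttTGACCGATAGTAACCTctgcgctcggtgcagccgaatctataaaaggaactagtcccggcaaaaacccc
The match lies at positions -69 to -54 from the start and reads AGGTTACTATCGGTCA on the opposite strand, which is 2 mismatches from the repeat. Both strands of 35116 RefSeq promoter windows of 300 bases (250 before to 50 after the start) were searched, and 2.34% of them hold a match with at most 2 mismatches. In the windows of LPCAT3, MYLIP and NR1H2 the closest match had 4 mismatches, and in the 4 windows of NR1H3 it had 4 or 5. ABCG1 had no entry. A match or its lack describes these letters only.

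Library totals ran from 17420373 to 36479629 estimated counts. No 2 libraries were identical, and the lowest correlation of log values between replicates of a group was 0.982. All 10 epithelial and A549 markers had a mean of at least 1 CPM (counts scaled to a common, TMM-normalised library size), with a summed level of 15650 to 20610 CPM per library. Of 10 macrophage and blood cell markers, 3 reached a mean of 1 CPM, and their summed level was 6.30 to 14.1 CPM. That sum averaged 9.04 CPM in vehicle, 8.48 in SR high and 12.1 in CR high, and its part in the results was not tested. The first number of the sample code is 1 for vehicle and wortmannin, 2 for ZRR and ZR, 3 for PT and SR and 4 for CR and ZF. The codes of the vehicle libraries alone begin with the letter A, whose meaning no label gives and which cannot be told apart from vehicle in any comparison with it. Treatment and that number cannot be told apart in comparisons of extracts with vehicle, while high against low dose lies within one number. In bulk RNA, fewer cells of a kind and less RNA per cell cannot be told apart.

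NR1H2 was the LXR gene with the higher level. Per kilobase of its longest transcript, NR1H2 averaged 17.7 ± 0.99 CPM per kb in vehicle (SD, n = 3) and NR1H3 3.69 ± 0.42. NR1H2 levels were 44.7, 40.2 and 41.2 CPM in the vehicle libraries, 47.4, 48.7 and 51.5 in SR high, and 51.4, 47.8 and 50.2 in CR high. Every library of these high-dose groups lay above every vehicle library. The quasi-likelihood test of edgeR, with p-values adjusted by Benjamini-Hochberg over the 17129 genes, gives every adjusted p here unless DESeq2 is named. The log2 fold change was 0.23 ± 0.07 (SE, adjusted p = 0.0175) for SR high. For CR high it was 0.25 ± 0.07 (adjusted p = 0.00605). CR medium, at 50.1, 44.3 and 50.9 CPM, overlapped vehicle and was called at 0.21 ± 0.07 (adjusted p = 0.0337). These calls rest on few libraries. The SR high call ended without vehicle 2 (adjusted p = 0.0911), vehicle 3 (0.0537) or SR high 3 (0.0979), and the CR high call without vehicle 2 (0.0528). The CR medium call ended without vehicle 2 (0.157), vehicle 3 (0.0975), CR medium 1 (0.137) or CR medium 3 (0.153), and with the length slope (how steeply log2 CPM rises with log2 transcript length in a library) in the fit (0.12, adjusted p = 0.125). Within SR, NR1H2 was 0.21 ± 0.07 higher at the high than at the low dose on the log2 scale (adjusted p = 0.0294), a call that ended without SR low 1 (0.159), SR low 2 (0.0622), SR high 2 (0.0584) or SR high 3 (0.153). Within CR, high and low doses overlapped, at 0.15 ± 0.07 (adjusted p = 0.124), and the difference was called with the length slope in the fit (0.23, adjusted p = 0.000826). NR1H2 overlaps NAPSB and NAPSA, among others, on the other strand. NAPSA averaged only 1.04 CPM and was not called in SR high or CR high.

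NR1H3 stayed between 8.82 and 14.1 CPM over all 60 libraries. Vehicle libraries had 10.3, 8.82 and 11.1 CPM, SR high libraries 11.2, 10.8 and 12.8, and CR high libraries 9.01, 9.34 and 10.1. Each high-dose group overlapped vehicle. Its log2 fold change was 0.21 in SR high (95% interval 0.01 to 0.42, adjusted p = 0.132) and -0.08 in CR high (-0.29 to 0.13, adjusted p = 0.576). Of the 31 planned comparisons, 0 were called by edgeR and 0 by DESeq2 (1 had no adjusted p from DESeq2), and 3 had an unadjusted p under 0.05. They were SR high against vehicle and the high against the low dose in SR and in CR. Within SR the high-dose libraries lay above the low-dose ones, at 0.21 ± 0.10 (adjusted p = 0.151). With the length slope in the fit this was called (0.21, adjusted p = 0.0399). Within CR the doses overlapped, at -0.21 ± 0.10 (adjusted p = 0.125). Wortmannin libraries, at 11.4, 12.02 and 11.2 CPM, lay above the vehicle libraries, with a log2 fold change of 0.20 (interval -0.0037 to 0.41, adjusted p = 0.15). NR1H3 overlaps ACP2, an acid phosphatase gene on the other strand, which was lower in CR high by a log2 fold change of -0.26 ± 0.08 (adjusted p = 0.00648).

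ABCA1, which loads cholesterol and phospholipid onto apolipoprotein, had 10.8, 10.7 and 9.45 CPM in vehicle. The SR high libraries had 15.5, 18.5 and 13.3 CPM and the CR high libraries 12.96, 15.4 and 13.2 CPM. Both high-dose groups lay wholly above vehicle. The log2 fold change was 0.60 ± 0.15 for SR high (adjusted p = 0.00157) and 0.42 ± 0.15 for CR high (adjusted p = 0.0209). SR high kept the call with each library left out, while the CR high call ended without vehicle 3 (adjusted p = 0.078) or CR high 2 (0.113). Doses of one extract share the first code number. ABCA1 was higher at the high than at the low dose by 0.71 ± 0.15 in SR (adjusted p = 0.000307) and by 0.85 ± 0.15 in CR (adjusted p = 1.8e-05), both on the log2 scale. With each library left out and under each other setting, these values ran from 0.58 to 0.82 in SR and from 0.60 to 0.96 in CR. Low-dose libraries had 8.71, 10.7 and 9.53 CPM in SR and 7.49, 8.61 and 6.74 in CR, so high and low did not overlap in either extract.

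At SR medium, ABCA1 had 11.4, 10.5 and 8.60 CPM, overlapping SR low, and the step from medium to high was 0.63 ± 0.15 (log2, adjusted p = 0.000954). At CR medium it had 10.8, 11.3 and 11.5 CPM, overlapping vehicle and all above CR low. Against vehicle, CR medium was at 0.11 ± 0.15 (adjusted p = 0.654), and at 0.38 (adjusted p = 0.000866) with the length slope in the fit. That step from low to medium was 0.54 ± 0.15 (adjusted p = 0.0361), a call lost in a fit of only the 2 groups (0.066) and with 5 of the 6 libraries left out in turn, CR low 1 (0.115), CR low 3 (0.21), CR medium 1 (0.0662), CR medium 2 (0.117) and CR medium 3 (0.114). The step from CR medium to high was 0.31 ± 0.14 (adjusted p = 0.209). It was called without the filter (0.0497) and in a fit of only the 2 groups (0.0405). The steps within SR and CR were compared after the data were seen. The dose effect of SR minus that of CR, each over its own doses, was -0.15 for ABCA1 (95% interval -0.57 to 0.28, adjusted p = 0.737).

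ABCA1 was also called lower in CR low and in wortmannin. CR low lay wholly below vehicle, at -0.44 ± 0.16 (log2, adjusted p = 0.0461). This gene has the longest transcript of the 6, 10.49 kb, and libraries differed in the length slope. That slope averaged 0.95 in CR low and 1.04 in vehicle, and over the 60 libraries it correlated with ABCA1 at r = 0.493, a description over libraries that share groups. With the slope in the fit the CR low value moved to -0.06 (adjusted p = 0.775), and it was also lost without vehicle 1 (0.155), vehicle 2 (0.133), CR low 1 (0.0956) or CR low 3 (0.212). Mean slopes of SR high (1.01) and CR high (1.01) lay below that of vehicle, and both ABCA1 calls held with the slope in the fit. Wortmannin libraries had 8.04, 7.65 and 7.30 CPM, wholly below vehicle, at -0.44 ± 0.16 (adjusted p = 0.0328). The wortmannin call ended without vehicle 1 (0.091), vehicle 2 (0.0856), wortmannin 2 (0.0612) or wortmannin 3 (0.0948). It was the only one of the 6 members called with wortmannin, where 25.3% of all genes were called.

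**Figure D1:**
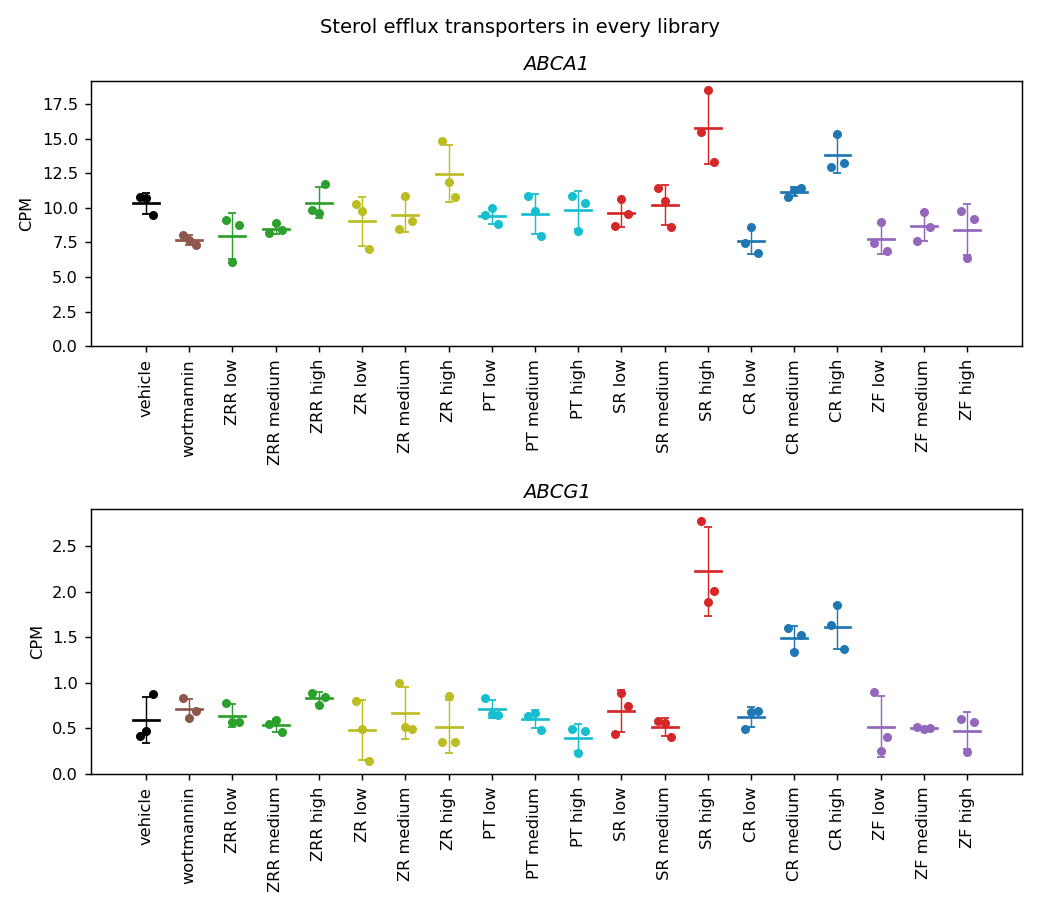
ABCA1 and ABCG1 in every library. The vertical axes give CPM from 0, each point is 1 of the 3 libraries of a group, and the bars are the mean and SD; SR high stands highest for both genes, CR high is next highest, and for ABCG1 CR medium lies with CR high.

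ABCG1, which exports sterol to lipoprotein particles, was the member with the widest range and the lowest counts. Vehicle libraries had 0.416, 0.471 and 0.878 CPM, from 10 to 17 rounded counts each. SR high libraries had 2.78, 1.89 and 2.00 CPM from 40 to 59 counts, and CR high libraries 1.63, 1.85 and 1.37 CPM from 33 to 54 counts. No library of SR high or CR high fell as low as the highest vehicle library. The log2 fold change was 1.95 ± 0.32 (adjusted p = 6.37e-06) in SR high and 1.498 ± 0.33 (adjusted p = 0.000249) in CR high. With each library left out and under each other setting, the calls held, at 1.76 to 2.32 for SR high and 1.31 to 1.86 for CR high. High against low dose gave 1.65 ± 0.31 in SR (adjusted p = 6.98e-05) and 1.37 ± 0.32 in CR (adjusted p = 0.000995).

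Medium doses of SR and CR gave unlike levels of ABCG1. At SR medium it had 0.586, 0.557 and 0.404 CPM, overlapping vehicle, and the step from medium to high was 2.10 ± 0.32 (log2, adjusted p = 1.53e-06). At CR medium it already had 1.60, 1.34 and 1.53 CPM, above every vehicle library, at 1.37 ± 0.33 against vehicle (adjusted p = 0.00173). The step from CR low to medium was 1.25 ± 0.33 (adjusted p = 0.0206), and it lost its call in a fit of only the 2 groups (0.0627) or without CR low 1 (0.116), CR low 2 (0.0522), CR low 3 (0.0539), CR medium 1 (0.0711) or CR medium 3 (0.065). From CR medium to high it was 0.13 (95% interval -0.44 to 0.69, adjusted p = 0.866). At CR low, ABCG1 had 0.494, 0.685 and 0.689 CPM, overlapping vehicle. The dose effect of SR minus that of CR was 0.28 (interval -0.66 to 1.21, adjusted p = 0.782), which takes in either order of the extracts.

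MYLIP, the ligase acting on lipoprotein receptors, was called in no comparison. Vehicle libraries had 4.74, 5.80 and 4.39 CPM, SR high libraries 5.56, 5.99 and 5.80, and CR high libraries 4.49, 4.12 and 5.31. Each high-dose group overlapped vehicle. Its log2 fold change was 0.21 in SR high (95% interval -0.03 to 0.45, adjusted p = 0.208) and -0.11 in CR high (-0.35 to 0.12, adjusted p = 0.489). Both edgeR and DESeq2 called 0 of its 31 planned comparisons, and 2 had an unadjusted p under 0.05, ZRR high against low and the dose effect of ZRR minus that of ZF. In the first of these, MYLIP had 5.36, 5.39 and 5.83 CPM in ZRR high and 4.75, 4.24 and 4.68 in ZRR low (log2 fold change 0.28, interval 0.04 to 0.52, adjusted p = 0.218). Its group means ran only from 4.56 CPM in ZRR low to 5.82 in PT medium, a ratio of 1.28.

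LPCAT3, the acyltransferase, was the member that SR and CR moved in opposite directions. Vehicle libraries had 47.7, 45.3 and 47.4 CPM, SR high libraries 57.5, 55.0 and 57.9, and CR high libraries 32.0, 29.6 and 29.5. SR high lay wholly above vehicle and CR high wholly below. The log2 fold change was 0.28 ± 0.08 in SR high (adjusted p = 0.00726) and -0.62 ± 0.08 in CR high (adjusted p = 2.13e-08). Both calls held with each library left out in turn. CR medium, at 33.2, 34.0 and 38.4 CPM, was lower by -0.41 ± 0.08 (adjusted p = 0.000143), and CR low, at 37.7, 42.6 and 35.8 CPM, by -0.27 ± 0.08 (adjusted p = 0.0178). All 9 CR libraries thus lay below all 3 vehicle libraries, and the group means fell from low to medium to high dose. The CR low call ended with the length slope in the fit (-0.13, adjusted p = 0.252) and without vehicle 1 (0.0852), CR low 1 (0.055) or CR low 3 (0.132).

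Within extracts, LPCAT3 was higher at SR high than at SR low by 0.25 ± 0.08 (log2, adjusted p = 0.0214), a call that ended without SR high 3 (0.0603) or SR low 3 (0.0716). CR high was lower than CR low, at -0.35 ± 0.08 (adjusted p = 0.00107). The difference between these dose effects, SR minus CR, was 0.60 ± 0.12 (adjusted p = 0.000239) and was added after the data were seen. It compares extracts at doses that differ. LPCAT3 was called in it where 9.08% of all genes were, and NR1H3, at 0.43 ± 0.15, had an adjusted p of 0.0548. LPCAT3 overlaps EMG1 and C1S, which are on the other strand. EMG1, a ribosome biogenesis gene, was at 0.02 ± 0.08 in SR high and 0.02 ± 0.08 in CR high, neither called, and C1S, a complement protease gene, was at -0.04 ± 0.03 in SR high and lower in CR high by -0.16 ± 0.03 (adjusted p = 0.000201).

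**Figure D2:**
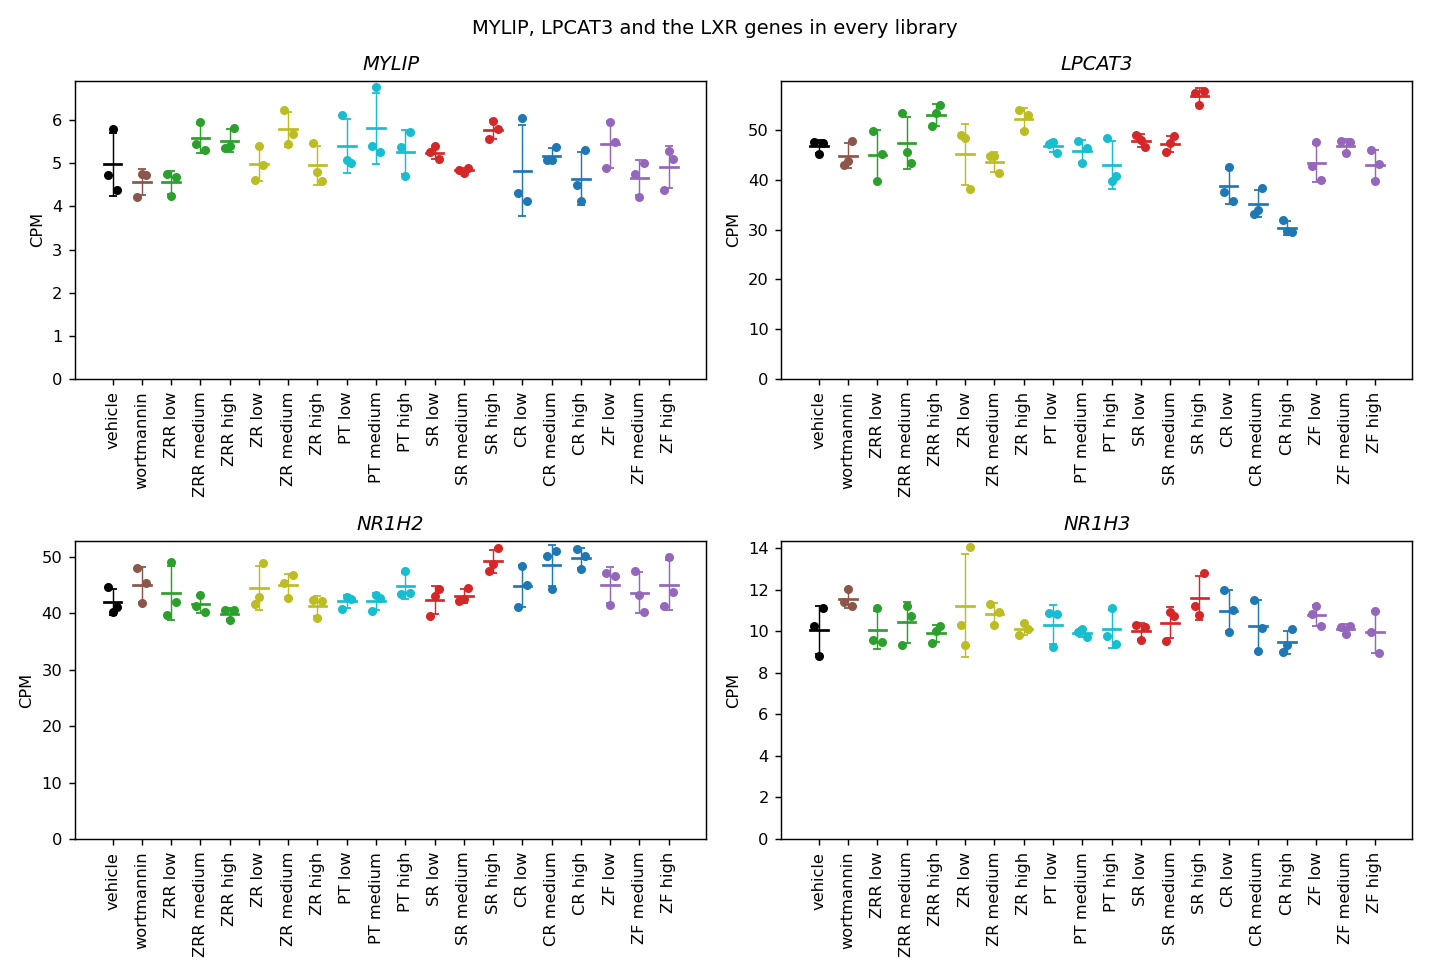
MYLIP, LPCAT3, NR1H2 and NR1H3 in every library. The vertical axes give CPM from 0, each point is 1 of 3 libraries, and the bars are the mean and SD; LPCAT3 stands highest in SR high and steps down through the CR doses, while MYLIP and NR1H3 overlap vehicle in most groups.

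Set against all genes, 4 of 6 members were called higher and 0 lower in SR high, where 23.9% of all genes were called (13% higher, 10.9% lower). The median log2 fold change was 0.25 for the members and 0.01 for all genes. In CR high, 3 members were called higher and 1 lower, where 35.1% of all genes were called (18.5% higher, 16.7% lower), with medians of 0.08 and 0.01. CR medium had 2 higher and 1 lower with 23.2% of genes called, and CR low 0 higher and 2 lower with 17.7% called. For high against low dose, SR had 4 higher with 20.4% of genes called, and CR had 2 higher and 1 lower with 25.4% called. Among the added steps, 3 members were called from SR medium to high (20.5% of genes), 0 from SR low to medium (0.00584%), 2 from CR low to medium (3.1%) and 0 from CR medium to high (7.53%). With these last zeros, 0 members from SR low to medium and 2 from CR medium to high were under 0.05 before adjustment. DESeq2 called 0 in each and gave no adjusted p for 1 member from CR medium to high. Other edgeR settings called those 2 members. LPCAT3 was called lower with the length slope in the fit (-0.26, adjusted p = 0.00497) and without the 3 libraries far out on it (-0.21, adjusted p = 0.0419). ABCA1 was called higher without the filter (0.32, adjusted p = 0.0497) and in a fit of only the 2 groups (0.31, adjusted p = 0.0405).

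**Figure D3:**
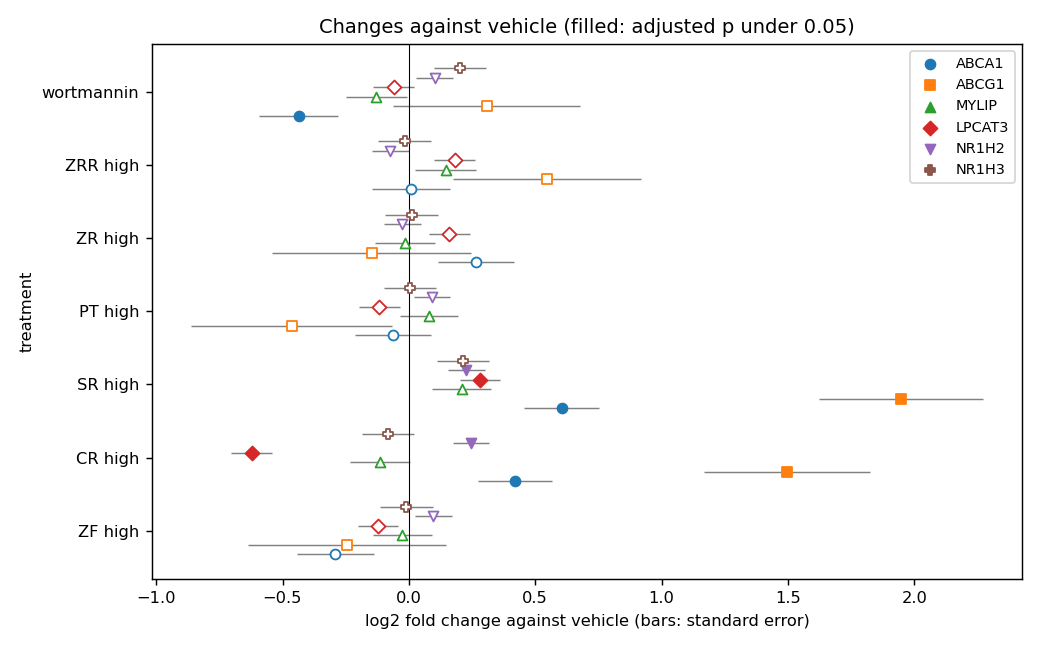
Log2 fold changes of the 6 genes against vehicle for wortmannin and the high dose of each extract. Points are edgeR estimates, bars their standard errors, and filled points have an adjusted p under 0.05; filled points are found for SR high, CR high and, for ABCA1 alone, wortmannin.

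ZRR, ZR, PT and ZF changed no member past the threshold at any dose. At the high dose the background was 4.03% of genes called for ZRR, 5.35% for ZR, 1.4% for PT and 0.00584% for ZF, so few genes of any kind passed there. Of these 24 tests, DESeq2 called 0 and gave no adjusted p for 3, and only LPCAT3 in ZRR high was under 0.05 before adjustment (1 test). LPCAT3 had 50.8, 53.4 and 55.0 CPM in ZRR high, all above vehicle (log2 fold change 0.18, 95% interval 0.02 to 0.34, adjusted p = 0.263). In ZR high it had 54.0, 49.7 and 53.0 CPM, also all above vehicle (0.16, interval -0.0018 to 0.32, adjusted p = 0.327). ABCA1 in ZR high had 14.8, 11.9 and 10.8 CPM, at 0.27 (interval -0.03 to 0.57, adjusted p = 0.408). With the length slope in the fit, 3 of these values passed the threshold, LPCAT3 in ZRR high at 0.22 (0.02) and in ZR high at 0.19 (0.0361) and ABCA1 in ZR high at 0.36 (0.00215). At medium and low doses of the 5 extracts other than CR, 0 of 60 tests were called by edgeR and 0 by DESeq2, which gave no adjusted p for 10. Of the 60 tests, 2 had an unadjusted p under 0.05, both for ABCA1 (ZRR low and ZF low). Without the filter edgeR called both lower, at -0.38 (adjusted p = 0.0265) and -0.41 (0.0242), and in a fit of only the 2 groups it called ABCA1 lower in ZRR medium, at -0.29 (0.0433). The background there was 0.28% of genes called for ZRR medium, 0.922% for ZR medium, 0.0175% for PT medium, 0% for SR medium, 0.0117% for ZF medium, 0.111% for ZRR low, 0.00584% for ZR low, 0% for PT low, 0.00584% for SR low and 0.0117% for ZF low.

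For high against low dose of these 4 extracts, edgeR called 0 of 24 tests, and an unadjusted p under 0.05 was found for 6. DESeq2 called 1 and gave no adjusted p for 3. The background was 4.17% for ZRR, 4.64% for ZR, 0.549% for PT and 0% for ZF. ABCA1 was at 0.46 ± 0.15 in ZR (log2, adjusted p = 0.0729), which is the one that DESeq2 called (adjusted p = 0.0486). With edgeR it was called without the filter on low counts (0.00185), with the length slope in the fit (0.00612), without ZR low 1 (0.0445) and without ZR high 3 (0.0408). It was at 0.38 ± 0.16 in ZRR (adjusted p = 0.192), with the ZRR high libraries, at 9.82, 9.64 and 11.7 CPM, above those of ZRR low, at 9.13, 6.08 and 8.78. Without the filter, ZRR high against low was called for ABCA1 (0.0353) and LPCAT3 (0.0414), and LPCAT3 also without ZRR low 1 (0.0244). The second ZRR low library was one of 3 that lay far out on the length slope. Differences of the dose effect among ZRR, ZR, PT and ZF, which share the same doses, gave 0 calls in 36 tests over 6 pairs, where 0.14% to 2.59% of all genes were called (ZRR minus ZR 0.14%, ZRR minus PT 2.59%, ZRR minus ZF 0.981%, ZR minus PT 1.8%, ZR minus ZF 1.24%, PT minus ZF 0.14%). Of the 36 tests 6 were at an unadjusted p under 0.05. DESeq2 gave no adjusted p for 5, and its single call was LPCAT3 for ZRR minus PT (0.35, adjusted p = 0.0405). By edgeR that difference was 0.36 (95% interval 0.13 to 0.59, adjusted p = 0.0737), and it was called without the filter (0.0157), without ZRR low 1 (0.0258) and without PT high 1 (0.0182). For ZRR and ZR the difference of the dose effect was 0.03 for LPCAT3 (interval -0.20 to 0.26) and -0.08 for ABCA1 (-0.52 to 0.36).

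In the order of the 20 group means, ABCA1 ran from 15.8 CPM in SR high through 13.9 in CR high and 12.5 in ZR high to 7.62 in CR low, a ratio of 2.07. None of its 19 steps between neighbours exceeded the larger of the 2 SDs. ABCG1 ran from 2.22 CPM in SR high to 0.399 in PT high, a ratio of 5.58, and 3 steps exceeded the larger SD, those below SR high, below CR medium and below ZRR high. LPCAT3 ran from 56.8 CPM in SR high to 30.4 in CR high, a ratio of 1.87, with 4 such steps, below SR high, below ZR high, between ZF high and CR low, and between CR medium and CR high. NR1H2 (ratio 1.25), NR1H3 (1.22) and MYLIP (1.28) had 0 of 19 such steps. Per kilobase in vehicle, NR1H2 (17.7 CPM per kb) and LPCAT3 (16.1) were highest, followed by NR1H3 (3.69), MYLIP (1.78), ABCA1 (0.985) and ABCG1 (0.169). In SR high ABCG1 reached 0.64 CPM per kb and ABCA1 1.504, so the order of these transporters did not change.

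Correlations of mean log2 CPM over the 20 groups, which rest on the same libraries for every gene and are given as a description, were 0.691 between ABCA1 and ABCG1 and 0.631 between ABCG1 and NR1H2. LPCAT3 correlated at 0.0619 with ABCA1, -0.202 with ABCG1 and -0.58 with NR1H2. The genes most like each member on the same measure, among 12085 or 12086 genes with a symbol and a mean log2 CPM of at least 1, differed between members. They were NCEH1 (0.911), ANKRD28 (0.907) and UGCG (0.903) for ABCA1, and ERRFI1 (0.919), ZNF449 (0.894) and TMEM231 (0.889) for ABCG1. For LPCAT3 they included TMED7 (0.94) and SCD (0.931), and for NR1H2 they were PHLDA3 (0.921), JUNB (0.898) and KRT7 (0.888). NR1H3 had DNAJC12 (0.833), NUCB1 (0.816) and AIG1 (0.799). MYLIP had the least close, DLAT (0.693), SLC35A2 (0.67) and ANAPC5 (0.668).

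The other genes of the pathway were counted from lists of known function. Of 21 further LXR targets, 14 were tested. In SR high, where 23.9% of all genes were called, 6 were called higher and 1 lower. Their median log2 fold change was 0.33 against 0.01 over all genes. In CR high, where 35.1% of all genes were called, 3 were higher and 4 lower (median 0.08). SREBF1, which encodes the activator of fatty acid synthesis genes, was higher in SR high by 0.78 ± 0.05 (adjusted p = 9.68e-18) and lower in CR high, at -0.40 ± 0.05 (adjusted p = 5.55e-09). SCD, the stearoyl-CoA desaturase, was at 0.99 ± 0.09 (adjusted p = 9.51e-12) and -1.05 ± 0.09 (adjusted p = 7.32e-13). These genes, like LPCAT3, went up in SR high and down in CR high, whereas ABCA1 and ABCG1 went up in both. SREBF1 was also higher in ZRR high (0.23) and ZR high (0.17), and RNF145, a ubiquitin ligase of sterol control, was lower there (-0.32 and -0.16). With wortmannin, 4 of the 14 were called higher and 0 lower, among them MLXIPL at 0.69 ± 0.19, a share near the 25.3% of all genes called there.

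Of 15 tested partners and coregulators of LXR, 1 was called higher and 1 lower in SR high (23.9% of all genes called), and 2 higher and 0 lower in CR high (35.1%). For CR high against low, 4 were higher and 1 lower (25.4%), and in CR low 1 was higher and 3 lower (17.7%). TTC39B, a scaffold protein that lowers LXR protein in other tissues, was higher in SR high (0.48 ± 0.09) and CR high (0.81 ± 0.09), and also in ZRR high (0.48) and ZR high (0.40). RXRA, an LXR partner, was higher by 0.22 ± 0.05 in CR high and by 0.20 ± 0.05 in ZR high. Enzymes that make or remove sterol ligands went different ways. Of 6 tested, 2 were higher and 1 lower in SR high (23.9% of all genes called), and 0 higher and 3 lower in CR high (35.1%). SULT2B1, which sulfates oxysterols, was lower in both (-0.32 and -0.54) and in ZRR high (-0.48) and ZR high (-0.67).

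Of 18 genes for sterol export, storage and traffic, 7 were higher and 2 lower in SR high (23.9% of all genes called). In CR high 3 were higher and 8 lower (35.1%). With wortmannin 8 were higher and 3 lower (25.3%), among them NPC2 at 0.69 ± 0.09 and CAV1 at -0.30 ± 0.03. STARD4, a cytosolic sterol carrier, was at 1.06 ± 0.07 in SR high and -1.04 ± 0.07 in CR high. GRAMD1B, which moves cholesterol from the plasma membrane to the endoplasmic reticulum, was at -0.78 ± 0.08 in CR high. It was also called lower in ZR high (-0.48) and PT high (-0.30). Among 7 MYLIP substrates and related genes, 4 were higher and 0 lower in SR high (23.9% of all genes called). In CR high 2 of them were higher and 2 lower (35.1%). VLDLR, a MYLIP substrate, was higher in SR high (0.94 ± 0.05) and in CR high (1.17 ± 0.05). It was also called higher in ZRR high (0.27) and ZR high (0.26) and lower with wortmannin (-0.21). Of the 10 other lysophospholipid acyltransferases, 1 was higher and 2 lower in SR high and 2 higher and 5 lower in CR high, where 23.9% and 35.1% of all genes were called. LPCAT1 was at -0.52 ± 0.04 and AGPAT1 at -0.31 ± 0.05 in CR high, and MBOAT2 was at -0.38 ± 0.06 in SR high. LPCAT1 was also called lower in ZRR high (-0.19) and ZR high (-0.21). MBOAT2 was also called lower in ZRR high (-0.195) and higher with wortmannin (0.38).

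SREBP2 targets moved in opposite directions with SR and CR. All 12 were called higher in SR high (median log2 fold change 0.66) and all 12 lower in CR high (median -0.76). The shares of all genes called there were 23.9% and 35.1%. INSIG1, the sterol-regulated brake on SREBP processing, was at 1.43 ± 0.05 and -1.31 ± 0.06. In CR medium, where 23.2% of all genes were called, 12 of 12 were lower (median -0.50), and in SR medium the median was 0.01. ABCA1 and ABCG1 were thus higher in a group where the SREBP2 targets were higher and in a group where they were lower. For high against low dose, 12 of 12 were higher in SR (20.4% of all genes called) and 10 of 12 lower in CR (25.4%). LPCAT3 had the sign of the SREBP2 median at all 3 doses of CR and at the high dose of SR. At SR medium it was at 0.02 ± 0.08. Other groups were mixed, and LPCAT3 was called in none of them. In PT high, INSIG1 (0.32) and LSS (0.31) were called higher and LPCAT3 was at -0.12 ± 0.08. With wortmannin, MSMO1 (0.57) and LSS (0.36) were called higher and LPCAT3 was at -0.06 ± 0.08. In ZRR high, INSIG1 (0.48) and DHCR7 (0.23) were called higher and LPCAT3 was at 0.18 ± 0.08. A link between them was not tested.

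**Figure D4:**
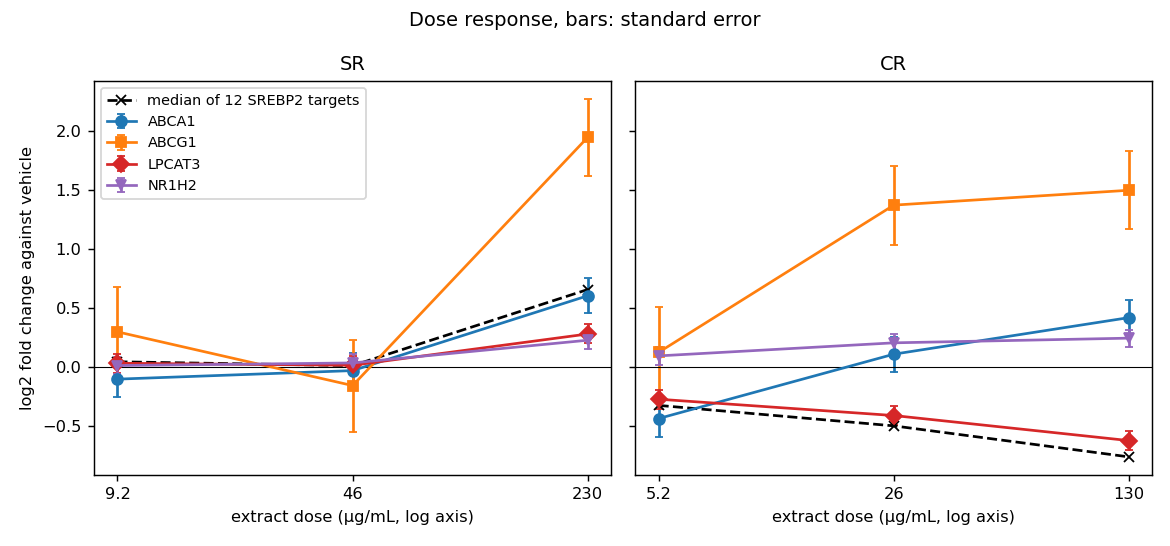
Log2 fold change against vehicle by dose for SR and CR, on log dose axes in µg/mL. Lines join edgeR estimates for ABCA1, ABCG1, LPCAT3 and NR1H2 with standard error bars, and the dashed line is the median of 12 SREBP2 targets; ABCG1 is near vehicle at the lower 2 SR doses and at the low CR dose and is higher from the middle CR dose on, and LPCAT3 and the dashed line go up in SR and down in CR.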

How the data were processed

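A549 mRNA was sequenced in 60 libraries (20 groups of 3). The authors deposited estimated counts for Ensembl genes with no normalisation, judged from the values, of which 9.06% are not whole. Listed in the submitters' processing notes are RSEM 1.3.3, STAR 2.7.3a, Trim Galore 0.6.5, FastQC 0.11.9 and GRCh38. The annotation release and strand setting, not given in the sources used here, are unknown, so reads of overlapping genes on opposite strands may not have been told apart. The table has 269 columns, and the 209 that carry no label of these samples were not used. Of the gene identifiers, 56558 were named by a current table, 438 by GENCODE 29, and 3679 had no name.

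Estimated counts were rounded to whole numbers and fitted with edgeR 4.0.16 in R 4.3.3 (TMM, filterByExpr by group, robust quasi-likelihood, 1 column per group, all 60 libraries, 40 residual degrees of freedom), with Benjamini-Hochberg adjustment within each comparison and a call at an adjusted p under 0.05. The biological coefficient of variation was 7.04%. CPM uses TMM-adjusted library sizes. The SE is the fold change divided by the square root of F. For length, the longest transcript in GENCODE 29 was taken (99.3% of tested genes have one). There were 31 planned comparisons and 5 added after the data were seen. The members and lists were chosen with earlier results of these data known. Named genes are all 6 members and, from each of 7 lists, the 2 called genes with the smallest p for wortmannin and each high dose, of which some are printed and some genes that the rule takes have no result given.

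Alternatives were DESeq2 size factors, no filter, DESeq2 1.42.0, only the libraries compared, a replicate block, the length slope as covariate, no libraries far out on it, and each library left out. On simulated data for SR high against vehicle (16933 genes), 71% of 100 genes altered 1.5-fold and 98% of 100 altered 2-fold were found by edgeR, with 7 others called. The altered genes had a mean of at least 1 CPM, above the 0.588 CPM of ABCG1 in vehicle. Changes under 1.5-fold, such as those of NR1H2, were not simulated.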

Additional observations from a re-analysis of the deposited data

Results flagged for a closer look

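The dose effect on LPCAT3, high minus low dose, differed between SR and CR by 0.60 on the log2 scale. It drew attention because a test of the difference itself passed the threshold (edgeR, adjusted p = 0.000239), with LPCAT3 higher at the high dose in SR and lower in CR. The call was kept in 19 of 19 alternatives, where the difference ran from 0.52 to 0.70 and the adjusted p reached at most 0.0027. The comparison was chosen after the data were seen, and the doses of the 2 extracts differ.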

How the results depend on the processing

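Of 27 called values of the 6 genes, none changed direction under any alternative run. With the length slope in the fit, member calls were 2 in place of 1 for wortmannin (NR1H3 was added at 0.24) and 3 in place of 5 for medium and low doses against vehicle (3 lost, and ABCA1 in CR medium gained). For dose effect differences among ZRR, ZR, PT and ZF, 0 calls became 2 without the filter and 1 with DESeq2. For the SR minus CR dose effect, 1 call became 2 when the 3 libraries with extreme length slopes were dropped, with only the libraries compared and with DESeq2, each time by NR1H3. With single libraries left out, calls ranged from 0 to 1 for wortmannin, 6 to 8 for high doses against vehicle (8 with all), 3 to 5 for medium and low doses, 5 to 8 for high against low (7 with all), 0 to 2 for dose effect differences, 1 to 2 for SR minus CR and 3 to 5 for the added dose steps (5 with all). The replicate block gave 1, 8, 5, 7, 0, 1 and 5 calls in this order, as without it. In 0 of 25 comparisons did all 3 same-numbered pairs deviate together (r over 0.1). Extracts that share a code number were not set against each other there, so this cannot tell whether the numbers pair the samples. DESeq2 gave no adjusted p for ABCG1 from CR low to medium, which is not counted as a lost call, nor for 5 of the 31 planned MYLIP comparisons. ABCG1 rests on 3 to 59 counts a library.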
